A study of Mus musculus with 13 samples.

Results

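The genes described here encode the nucleolar machinery that makes ribosomes. The list names 40 mouse genes: factors that transcribe ribosomal RNA with RNA polymerase I, factors that modify and cut the transcript, and factors that assemble the 2 ribosomal subunits. They were picked as nucleolar genes known to respond to Myc, with earlier results of these data known, and taken by gene symbol from the 56941 gene rows of the RNA-seq count table, and all 40 were found and tested. The cells were Th17 cells, CD4 helper T cells known for interleukin-17 production. Naive CD4+ T cells from mouse spleen were cultured in Th17-polarizing medium for 72 hours, and each of the 2 genotypes had 3 libraries that the labels call biological replicates. One genotype is given as Chaf1bWT (WT), with nothing said of a Cre transgene. The other is given as Chaf1bfl/fl;Il17fCre+ (KO), in which Il17f drives the Cre recombinase, so deletion depends on cells that turn Il17f on. Chaf1b encodes a subunit of CAF-1, the chaperone that places histones H3 and H4 on newly copied DNA. The study asked what Chaf1b does in Th17 cells. The age of the mice is not given in the sources used here.

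In the nucleolus, RNA polymerase I copies ribosomal DNA into one long precursor RNA. The precursor is modified at sites picked by small nucleolar RNAs, cut into the mature ribosomal RNAs, and packed with ribosomal proteins into the small and the large subunit. Activated T cells enlarge their nucleoli before they divide, and Myc, a transcription factor that binds the E-box CACGTG with its partner Max, is known to raise many of these genes.

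The targeted gene was read first. Chaf1b had 541, 438 and 525 counts in the WT libraries and 572, 567 and 498 in the libraries labelled KO. It was not lower in the latter (log2 fold change 0.31, adjusted p = 0.13 by edgeR), and without WT replicate 1 it was called higher (0.38, adjusted p = 0.0138). Exons were summed per gene, so the count does not show whether the flanked exons were present. KO below means the libraries labelled so. Library totals ran from 35708879 to 45232055 counts. The T cell genes Cd3e, Cd4 and Lck were expressed in all 6 libraries, and the NK cell genes Ncr1 and Klrb1c had 0 counts in each. Levels are given as CPM, counts scaled to one common library size. Per library total, Il17a stood at 105, 52.7 and 43.4 CPM in WT and at 8.46, 8.39 and 9.80 in KO. WT replicate 1 thus had the most Il17a of the 6 libraries, and it had the least of most ribosome biogenesis genes.

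Promoter sequence is shown for 3 of the genes, from RefSeq (build GRCm38.p6), as the 250 bases before the transcription start, written 5′ to 3′ on the gene's strand with each CACGTG in capitals. Ubtf is shown because it was the one member that passed the test; Nop2 and Rrn3 are shown because they were the members whose E-box lay before the start. The Ubtf window (chr11:102320863-102321112, minus strand, the farthest upstream of 6 starts in the table) held no CACGTG, nor did the windows of its other starts. The Nop2 window (chr6:125131633-125131882, plus strand) held 1, whose first base lay 60 bases before the start, and the Rrn3 window (chr16:13780449-13780698, plus strand) held 2, at 215 and 48 bases before the start.
Ubtf: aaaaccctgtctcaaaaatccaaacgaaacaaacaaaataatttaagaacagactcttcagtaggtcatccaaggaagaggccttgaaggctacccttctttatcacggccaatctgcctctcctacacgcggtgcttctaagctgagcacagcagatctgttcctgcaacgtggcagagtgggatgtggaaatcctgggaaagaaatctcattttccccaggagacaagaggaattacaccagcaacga
Nop2: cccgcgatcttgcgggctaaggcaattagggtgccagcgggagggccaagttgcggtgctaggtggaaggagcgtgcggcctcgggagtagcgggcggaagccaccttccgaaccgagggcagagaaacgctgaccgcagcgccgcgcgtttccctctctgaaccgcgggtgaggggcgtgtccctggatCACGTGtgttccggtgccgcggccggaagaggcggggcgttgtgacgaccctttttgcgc
Rrn3: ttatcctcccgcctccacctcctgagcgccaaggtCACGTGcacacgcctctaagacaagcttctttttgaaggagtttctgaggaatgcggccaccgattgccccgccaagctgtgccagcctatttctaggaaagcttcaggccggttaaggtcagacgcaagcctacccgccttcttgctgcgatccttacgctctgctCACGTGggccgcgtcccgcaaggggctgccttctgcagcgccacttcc

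A start-site window of 300 bases, 250 before the start and 50 after, was in the table for 34 of the 40 genes. CACGTG, which reads the same on both strands, occurred in the windows of 9 of them: Nop2, Rrn3, Pes1, Utp4, Wdr43, Tsr1, Ltv1, Utp20 and Mybbp1a. That share, 26.5%, stood beside 8.09% of all 27025 genes with a window and 13.0% of the 5705 tested genes with a window and a mean of at least 20 CPM. As the list was chosen for genes that respond to Myc, a higher share of this motif is not independent of the choice. In the last 7 genes the match began between 2 and 40 bases after the start. The 9 genes with the motif had a median log2 fold change of -0.037, from -0.14 to 0.050, and the 25 without it had a median of -0.0092, from -0.23 to 0.078. A match of letters does not show that a factor binds there.

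Across the 40 genes the 2 genotypes were close. In KO 1 gene, Ubtf, fell, 0 rose, and 39 did not pass an adjusted p of 0.05 (edgeR's quasi-likelihood test, Benjamini-Hochberg adjustment over 14681 genes, fold changes KO over WT). At an unadjusted p under 0.05 there were 3 members: Ubtf, Polr1b and Npm1. Over all tested genes 3.92% were called higher and 2.47% lower, and among the 7164 genes with a mean of at least 20 CPM, the level that all 40 members reached, 4.79% and 3.45%. The members' share of 1 in 40 lay near that background. Their median log2 fold change was -0.026, against -0.0064 over all tested genes, with 15 above 0 and 25 below. By library total alone, without TMM factors, the split was 8 and 32. Under that scaling the median over all tested genes also moved down, to -0.036, and that of the members was -0.055.

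The intervals bound the size of the differences as fitted with all 6 libraries. The 95% interval of the fold change lay within 1.5-fold either way for all 40 genes and within 1.25-fold for 35 (87.5%). Among the tested genes of at least 20 CPM those shares were 96.9% and 75.8%. The members' intervals reached from -0.38 at the lowest bound to 0.40 at the highest, and their median half-width was 0.14 on the log2 scale. All the intervals rest on the same libraries, so they are not 40 separate bounds. Without WT replicate 1 the members' median log2 fold change was -0.085, against -0.026 with all libraries. In 28 of the 40 genes all 3 KO values lay inside the range of the WT values, which was so for 23.4% of all tested genes and 28.7% of those of at least 20 CPM. All 3 KO libraries were above all WT libraries in 1 member (Npm1) and below in 2 (Polr1b and Ubtf), while over all tested genes the shares were 14.4% and 12.4%. RNA here came from whole cultures, so fewer cells making a transcript and less of it per cell cannot be told apart.

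**Figure D1:**
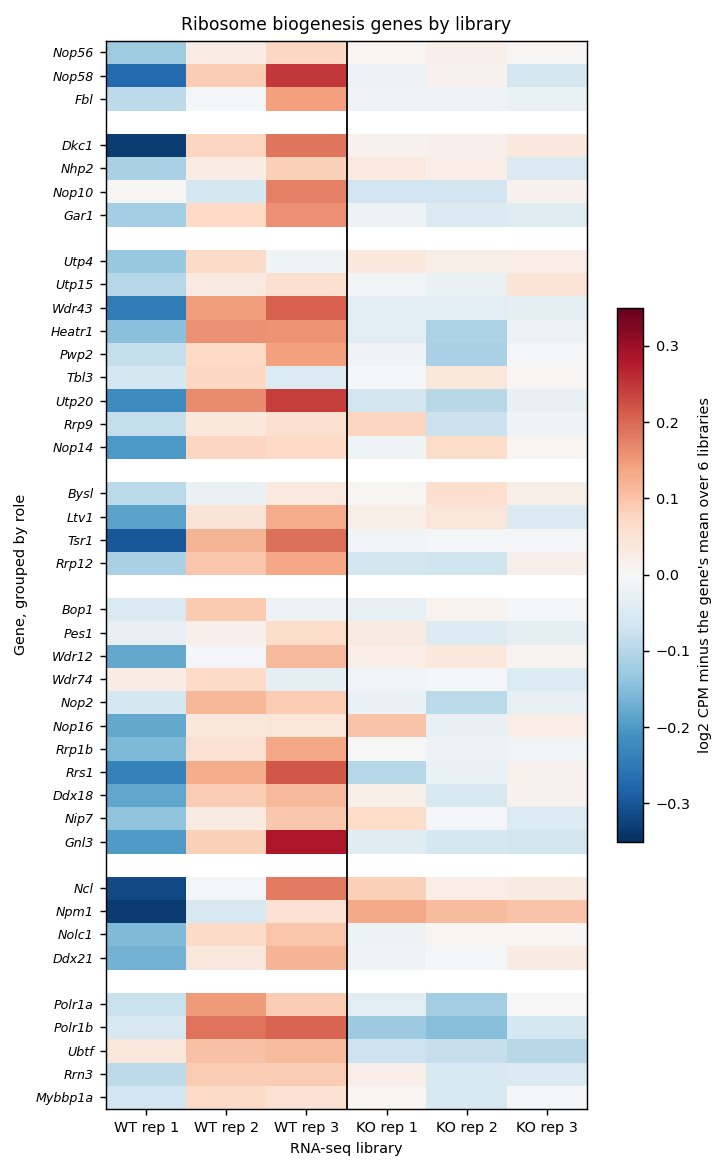
Level of each of the 40 ribosome biogenesis genes in each RNA-seq library, as log2 CPM minus the gene's mean over the 6 libraries (colour scale), with rows grouped by role and a line between the 3 WT and the 3 KO columns. WT replicate 1 is the lowest of the 6 in 32 genes and WT replicate 3 the highest in 26, while the KO columns stay near the mean.

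Of the 5 RNA polymerase I genes 1 fell, Ubtf, and 4 did not pass. Fitted values were below 0 for all 5, with a median of -0.11, and stayed below 0 for all 5 under each of the other scalings and in each fit that left out a library. Ubtf encodes UBF, the factor that binds ribosomal DNA and keeps it open for RNA polymerase I. Ubtf (ENSMUSG00000020923.18) stood at 304, 317 and 319 CPM in WT and 281, 279 and 276 CPM in KO, means of 313 ± 8.18 and 279 ± 2.41 (SD, n = 3 each). The groups did not overlap, and the KO values were within 5 CPM of each other. Ubtf was 1.12-fold lower in KO (log2 fold change -0.17 ± 0.043 SE, adjusted p = 0.0429, edgeR).

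The Ubtf call was kept in 1 of the 6 fits that left out a library. It held without WT replicate 1 (edgeR, adjusted p = 3.84e-04). It was lost without WT replicate 2 (0.177), WT replicate 3 (0.0721), KO replicate 1 (0.165), KO replicate 2 (0.176) or KO replicate 3 (0.181). The log2 fold change stayed between -0.19 and -0.16 in these edgeR fits. Over all tested genes, 362 were called lower in the main fit and 1372 without WT replicate 1. The number was 98 and 442 without WT replicates 2 and 3, and 70, 72 and 90 without KO replicates 1, 2 and 3.

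Polr1a and Polr1b encode the 2 largest subunits of RNA polymerase I, which form its catalytic core. Polr1b (ENSMUSG00000027395.16) stood at 101.0, 119.9 and 120.9 CPM in WT and 96.2, 94.8 and 100.6 in KO. The highest KO value lay just under WT replicate 1, the lowest of the WT values. Its log2 fold change of -0.23 ± 0.070 was the lowest in the list but missed the threshold (adjusted p = 0.0799, edgeR). The call was made without TMM factors (adjusted p = 0.047), with DESeq2's Wald test (0.0496), without a filter on low counts (0.00503), with limma-voom quality weights (4.12e-04) and without WT replicate 1 (8.12e-06). Polr1a stood at 177, 207 and 199 CPM in WT and 182, 172 and 187 in KO. The groups overlapped only through WT replicate 1, and the log2 fold change was -0.11 ± 0.063 (edgeR, adjusted p = 0.358).

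Rrn3 encodes TIF-IA, which links the polymerase to its promoter factors. Rrn3, whose promoter with 2 E-boxes is printed above, stood at 117, 133 and 133 CPM in WT and 127, 120.2 and 121 in KO, so that every KO value lay between WT replicate 1 and the other two. Its log2 fold change was -0.058, with a 95% interval from -0.19 to 0.073. Mybbp1a encodes a nucleolar Myb-binding protein that associates with RNA polymerase I complexes. It stood at 863, 949 and 939 CPM in WT and 909.7, 871 and 902 in KO, also inside the WT range, with a log2 fold change of -0.037, from -0.14 to 0.064.

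The 3 nucleolar phosphoproteins and the helicase Ddx21 had fitted log2 fold changes from -0.0092 to 0.22, and 0 of 4 passed the test. Npm1 encodes nucleophosmin, an abundant histone and ribosome chaperone that makes up much of the granular nucleolus. Npm1 (ENSMUSG00000057113.14) stood at 1418, 1721 and 1854 CPM in WT and at 1963, 1932 and 1918 in KO. It was the one member whose KO libraries all lay above WT, and its KO values spread far less than its WT values, with means of 1665 ± 224 and 1938 ± 22.9 CPM (SD, n = 3 each). The log2 fold change was 0.22 ± 0.081 (edgeR, adjusted p = 0.154). With WT replicate 1 left out Npm1 was called at 0.12 (adjusted p = 0.0165), and with WT replicate 3 left out at 0.30 (adjusted p = 0.0221). It was also called when low counts were not filtered out (adjusted p = 4.21e-04). With limma-voom quality weights 1 of the 4 genes of this group was called higher.

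Ncl encodes nucleolin, which binds ribosomal DNA and the nascent precursor. Ncl stood at 1393, 1729.7 and 1968 CPM in WT and 1836, 1764 and 1772 in KO. Its 3 KO values fell between WT replicates 2 and 3, and WT replicate 1 lay far below the other 5 libraries. The log2 fold change was 0.077, with one of the widest intervals in the list, from -0.17 to 0.33. Nolc1, the Nopp140 chaperone of small nucleolar particles, stood at 287, 334 and 341 CPM in WT and 315, 320.4 and 320.0 in KO. Ddx21, an RNA helicase of polymerase I and II transcription, stood at 528, 609.7 and 643 in WT and 588, 590.0 and 604 in KO. For both, all KO values lay inside the WT range and the means nearly coincided, 594 ± 59.2 against 594 ± 8.93 CPM for Ddx21 (SD, n = 3 each).

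Of the 7 proteins of the particles that modify ribosomal RNA 0 passed the test. Box C/D particles add methyl groups to ribose, and Fbl, fibrillarin, is their methyltransferase. Fbl stood at 301, 319 and 354 CPM in WT and 317, 318 and 315 in KO, with a log2 fold change of -0.035, from -0.16 to 0.092. Nop56 and Nop58 are the paired scaffold proteins of the particle. Nop56 stood at 369, 410.3 and 423 CPM in WT and 404, 407 and 404 in KO, a log2 fold change of 0.015. Nop58 stood at 244, 313 and 349.9 CPM in WT and 290.3, 298 and 282 in KO. Its WT replicate 1 was the lowest and its WT replicates 2 and 3 the highest of the 6, so the log2 fold change of -0.060 averages WT libraries on both sides of the KO ones.

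Box H/ACA particles turn uridine into pseudouridine, and Dkc1, dyskerin, is the enzyme, which also belongs to telomerase. Dkc1 stood at 112, 148 and 160.2 CPM in WT and 142, 142 and 144 in KO. WT replicate 1 lay below the other 5 libraries, and the 3 KO values differed by under 3 CPM; the log2 fold change was 0.030, from -0.22 to 0.28. The 3 proteins that complete the particle did not pass the test: Gar1 had a log2 fold change of -0.079 (160.0 ± 15.4 CPM in WT, 152 ± 1.89 in KO), Nop10 of -0.083 (62.7 ± 5.47 and 59.2 ± 1.95) and Nhp2 of 0.0023 (151 ± 10.5 and 151 ± 4.67, SD, n = 3 each). CPM takes no account of gene length, so levels of different genes were not ranked.

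The small subunit processome is the large particle that folds and cuts the 5′ part of the precursor. Of its 9 members 0 rose and 0 fell, and the median log2 fold change was -0.0072. The UtpA subcomplex, which binds the precursor first and is tied to its transcription, was represented by 4 genes with differing values. Heatr1 stood at 281, 347 and 347 CPM in WT and 303, 288 and 306 in KO, a log2 fold change of -0.12 ± 0.076. Wdr43 stood at 237, 311 and 325 CPM in WT and 273, 273 and 275 in KO, so that its KO values were nearly equal while its WT values ran from well below to well above them. Utp4 stood at 146, 168 and 159 CPM in WT and 165, 163 and 163 in KO, and its KO values lay inside the WT range. Utp4 and Utp15 had log2 fold changes of 0.050 and 0.0087, with intervals from -0.072 to 0.17 and from -0.11 to 0.13.

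Utp20, a very long scaffold protein of the precursor, had the lowest fitted value of the processome. It stood at 177, 231 and 244 CPM in WT and 197, 192 and 202 in KO. The KO values lay above WT replicate 1 and below WT replicates 2 and 3, and the log2 fold change of -0.14 ± 0.10 did not pass (edgeR, adjusted p = 0.488). Pwp2 and Tbl3 belong to the UtpB subcomplex. Pwp2 stood at 118, 132 and 139 CPM in WT and 125, 116 and 125 in KO, a log2 fold change of -0.088, and Tbl3 had 0.024 with KO values inside the WT range. Rrp9, the protein specific to the U3 particle, had a log2 fold change of -0.0072, and Nop14, an early assembly factor, of 0.032. Nop14 stood at 127, 154 and 153 CPM in WT and 144, 152 and 147 in KO, with WT replicate 1 apart from the other 5 libraries.

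The later small subunit factors carry the particle from the nucleolus to the cytoplasm. Tsr1, a GTPase-like factor that blocks early joining to the large subunit, stood at 105, 139.8 and 147 CPM in WT and 128, 128 and 128 in KO. Its KO libraries agreed to within 1 CPM while its WT libraries did not, and the log2 fold change was -0.027, from -0.26 to 0.21. Rrp12, a factor for export and 3′ end maturation, had a log2 fold change of -0.082 (171 ± 15.5 CPM in WT and 162 ± 5.59 in KO, SD, n = 3 each). Bysl, the bystin protein of the late nuclear particle, and Ltv1, which leaves it in the cytoplasm, had log2 fold changes of 0.055 and 0.0033. Ltv1 stood at 101, 118 and 126 CPM in WT and 117, 118 and 111 in KO, every KO value inside the WT range. Of the 4 genes 0 passed the test.

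The large subunit factors were the biggest group, with 0 of 11 called and a median log2 fold change of -0.025. Bop1, Pes1 and Wdr12 form the PeBoW complex, which is needed to process the large subunit's RNAs. Pes1 stood at 243, 250.3 and 259 CPM in WT and 253, 239 and 242 in KO, and Bop1 at 167, 184 and 170.4 in WT and 169, 174 and 172 in KO. Wdr12 stood at 86.2, 97.3 and 106 CPM in WT and 99.3, 100.1 and 98.3 in KO. The groups overlapped for each of the 3, and the log2 fold changes of Pes1, Bop1 and Wdr12 were -0.034, -0.015 and 0.042. Their 95% intervals ran from -0.14 to 0.070, from -0.13 to 0.10 and from -0.11 to 0.19.

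Gnl3, nucleostemin, a GTPase that shuttles in and out of the nucleolus of dividing cells, had the lowest fitted value of the group. It stood at 151, 184 and 211 CPM in WT and 169, 166 and 166 in KO. WT spread over both sides of the KO values, and the log2 fold change of -0.13 ± 0.10 did not pass (edgeR, adjusted p = 0.529). Nop2, a 28S RNA cytosine methyltransferase whose promoter is printed above, stood at 220.3, 249 and 244 CPM in WT and 226, 215 and 225 in KO, a log2 fold change of -0.10, from -0.22 to 0.023. Rrs1, which helps to dock the 5S RNA particle, stood at 110.3, 142 and 151 CPM in WT and 121, 128 and 131 in KO, again with WT replicate 1 below and the other WT libraries above every KO library. Its log2 fold change was -0.085.

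The other large subunit factors had smaller fitted changes. Ddx18, a helicase, Rrp1b, a nucleolar scaffold, and Wdr74, a factor of middle assembly steps, had log2 fold changes of -0.019, -0.025 and -0.043. Nop16 and Nip7, early large subunit factors, had 0.061 and 0.0056. Ddx18 stood at 172, 207 and 211 CPM in WT and 198, 188 and 197 in KO, and Nop16 at 101, 118 and 118 in WT and 123, 112 and 116 in KO; in both WT replicate 1 was the lowest of the 6 libraries. Wdr74 (146, 150.4 and 141 CPM in WT) and Nop10 (61.0, 58.3 and 68.8) were the 2 members in which WT replicate 1 was not the lowest WT library.

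**Figure D2:**
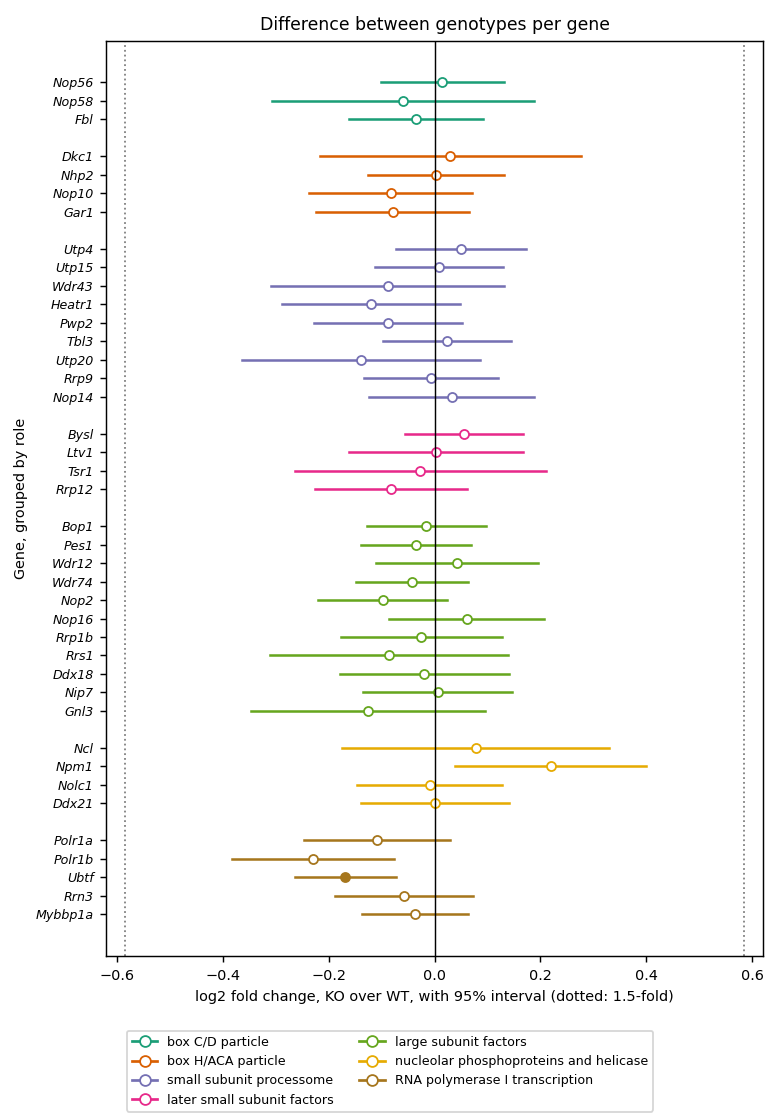
Fitted log2 fold change of each gene, KO over WT, with its 95% interval (horizontal bars), coloured by role; a filled point marks an adjusted p of at most 0.05 and dotted lines mark 1.5-fold. Ubtf is the one filled point, the 5 RNA polymerase I genes lie left of 0, and Npm1 lies farthest right at 0.22.

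The WT libraries differed more among themselves than the KO libraries did. The SD of log2 CPM was larger in WT than in KO for 39 of the 40 genes, against 75.9% of the tested genes of at least 20 CPM. The median SD was 0.13 in WT and 0.035 in KO, against 0.088 and 0.047 in those genes. The WT side of the spread had an order that the genes shared. WT replicate 1 was the lowest of the 3 WT libraries in 38 of 40 members (95%; 45.5% of the tested genes of at least 20 CPM), and the lowest of all 6 libraries in 32 (80.0%; 31.5%). WT replicate 3 was the highest of all 6 in 26 (65.0%; 23.2%). Summed over the 40 genes, the level was 10090, 11810 and 12410 CPM in WT and 11680, 11460 and 11560 in KO. Ncl and Npm1 made up a large part of that sum. Per library total, the sum was 10240, 11890 and 12490 CPM in WT and 11490, 11390 and 11460 in KO. Without Ncl and Npm1 it was 7390, 8414 and 8643 in WT and 7751, 7718 and 7800 in KO, also per library total.

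The size of the gap differed between members. On the log2 scale WT replicate 1 lay a median of 0.23 below the mean of the other 2 WT libraries (-0.23, against -0.015 over the tested genes of at least 20 CPM). It was widest for Dkc1 (-0.46), Tsr1 (-0.45), Nop58 (-0.44), Utp20 (-0.42), Wdr43 (-0.42), Rrs1 (-0.41) and Ncl (-0.41), and narrow for Nop10 (-0.053), Ubtf (-0.065), Pes1 (-0.068) and Tbl3 (-0.075). For Wdr74 it was 0.0093. The same library had the most of the 4 Th17 markers Il17a, Il17f, Il23r and Ccr6, whose summed level per library total was 180.2, 92.7 and 73.1 CPM in WT and 16.4, 17.6 and 18.6 in KO. It also had the most of the T cell genes Cd3e, Cd4 and Lck, which summed to 741, 589 and 564 in WT and from 557 to 572 in KO. Its mitochondrial share of counts was the lowest, 0.265% against 0.277% to 0.337%. The CD8 T cell markers Cd8a and Cd8b1 summed to 12.3 to 16.3 CPM over the 6 libraries, with WT replicate 1 at 14.3. The NK cell markers were at 0, and B cell, myeloid and erythroid markers summed to under 2 CPM each in every library. The part of these differences in the levels of the ribosome biogenesis genes was not tested.

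**Figure D3:**
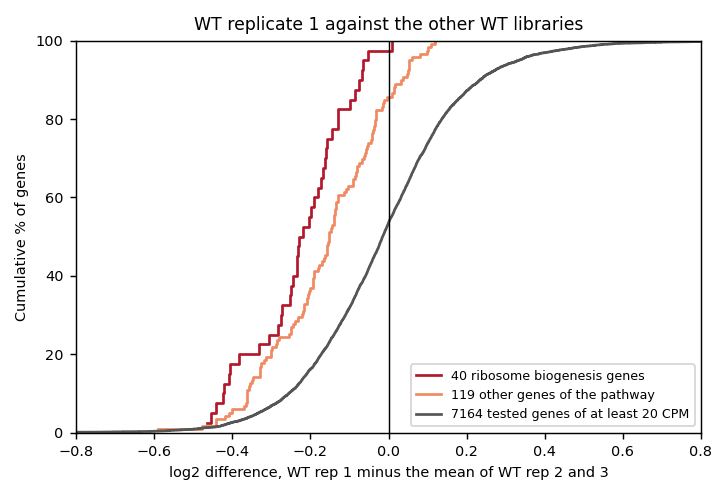
Cumulative share of genes (y axis, percent) against the log2 CPM of WT replicate 1 minus the mean of WT replicates 2 and 3 (x axis), for the 40 ribosome biogenesis genes, 119 other genes of the pathway and the 7164 tested genes of at least 20 CPM. The first curve lies left of 0 for all genes but Wdr74, with a median of -0.23, and the second lies between it and the curve of the tested genes.

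The count of members called turned on that library. Without WT replicate 1, 14 of 40 members were lower and 1 was higher (edgeR, adjusted p at most 0.05), 37 of 40 fitted values were below 0, and the median was -0.085. More genes of all kinds were called in that fit: 10.6% of the 15039 genes tested then were called higher and 9.12% lower, and of the 7164 genes of at least 20 CPM 14.8% and 14.2%. The members' share called lower was 14 in 40. The lower genes were Ubtf, Polr1a and Polr1b of RNA polymerase I; Nop58 and Gar1 of the modifying particles; Wdr43, Heatr1, Pwp2 and Utp20 of the processome; Tsr1 and Rrp12 of the later small subunit factors; and Nop2, Rrs1 and Gnl3 of the large subunit factors. Their log2 fold changes ran from -0.15 for Pwp2 to -0.31 for Polr1b, with Utp20 at -0.27 ± 0.041 and Gnl3 at -0.24 ± 0.047. That fit sets 2 WT libraries against 3 KO libraries, and leaving out any other library called 0 members lower. Few genes of any kind were called lower in most of those fits. Without WT replicate 2 they were 98 of 15119 tested genes, and without WT replicate 3 they were 442 of 15072. Without KO replicates 1, 2 and 3 they were 70 of 15180, 72 of 15154 and 90 of 15169.

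**Figure D4:**
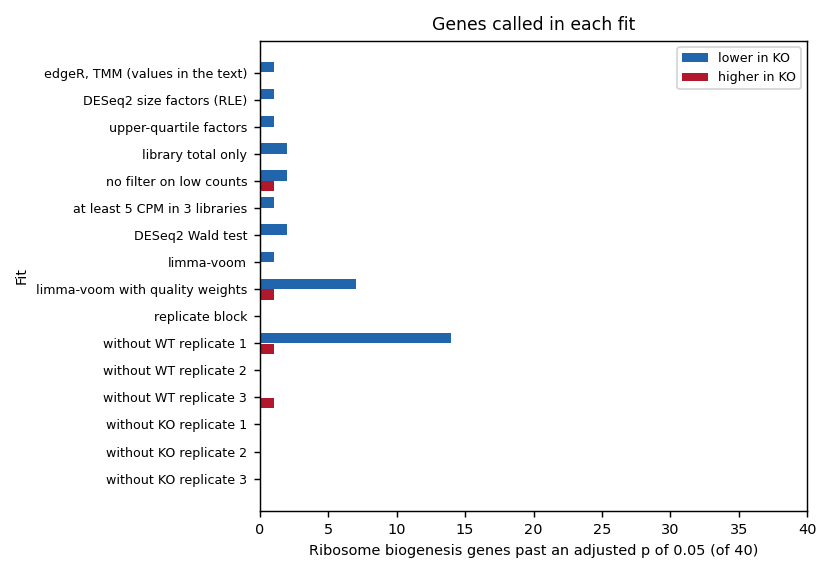
Number of the 40 ribosome biogenesis genes past an adjusted p of 0.05 (x axis) in each fit (y axis), lower in KO in blue and higher in red. The count of lower genes is 7 with library quality weights, 14 without WT replicate 1 and 0 to 2 in the other fits. Over all tested genes the count of lower genes also rose. It went from 362 of 14681 in the main fit to 1376 of 14681 with quality weights and 1372 of 15039 without WT replicate 1.

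The other genes of the pathway numbered 119 in 5 lists. In KO 1 fell, Mdn1, and 0 rose, beside 3.45% lower and 4.79% higher among the tested genes of at least 20 CPM. All 3 KO libraries lay above all WT libraries in 18 of the 119 (15.1%) and below in 6 (5.04%), and inside the WT range in 48 (40.3%). Over all tested genes those shares were 14.4%, 12.4% and 23.4%. Among the tested genes of at least 20 CPM they were 17.5%, 13.0% and 28.7%. The share above thus lay near the background. Mdn1 encodes midasin, the giant AAA ATPase that strips factors from the maturing large subunit. It stood at 376, 479 and 489 CPM in WT and 324, 319 and 356 in KO, with no overlap, a log2 fold change of -0.43 ± 0.092 (edgeR, adjusted p = 0.0251). The call was lost in each leave-one-out fit except the one without WT replicate 1, at adjusted p from 0.0531 to 0.117. Median log2 fold changes were -0.018 for 37 further processome genes, 0.050 for 9 later small subunit factors, -0.0060 for 46 large subunit factors, -0.0025 for 14 RNA polymerase I genes and 0.080 for 13 genes of the nuclear exosome, which trims precursor ends. In that last list 11 of 13 values were above 0, and 0 passed the test. In the lists before it, in the same order, 18 of 37, 5 of 9, 20 of 46 and 7 of 14 were above 0. WT replicate 1 was the lowest of the WT libraries in 95 of the 119 (79.8%). Without it 22 of the 119 fell and 7 rose, beside 14.2% lower and 14.8% higher among the genes of at least 20 CPM in that fit.

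Among those 14 RNA polymerase I genes no common direction appeared, with 7 above 0 and 7 below. Polr1c and Polr1d, subunits that RNA polymerases I and III share, had 0.056 and 0.16. Tcof1, treacle, which works with UBF on ribosomal DNA, had 0.12, and Cd3eap, an older symbol of Polr1g, had -0.30 ± 0.11, with 0 of the 14 past the threshold (edgeR). These were named after their values were seen.

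Myc, known as an activator of these genes, stood at 335, 401 and 407 CPM in WT and 309.8, 310.2 and 329.6 in KO, again lowest among the WT libraries in replicate 1. Its log2 fold change was -0.27 ± 0.070 (edgeR, adjusted p = 0.0466). The call was lost with DESeq2 size factors (0.051), with limma-voom (0.0604) and in each leave-one-out fit but the one without WT replicate 1 (up to 0.21). Mnt, a repressor that competes with Myc for Max, fell (85.4 ± 0.945 to 71.8 ± 1.94 CPM, log2 fold change -0.25, adjusted p = 0.0169). Mlx, a Max-like partner, rose (0.23, adjusted p = 0.0413) but not by library total alone (0.0687). The Mnt call was lost in 4 of the 6 leave-one-out fits (up to 0.111) and the Mlx call in 5 (up to 0.215), while both held without WT replicate 1. Max had -0.14 and did not pass. Of the 9 genes of the Myc network that were read, 2 fell, 1 rose and 6 were not called.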

How the data were processed

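The authors deposited one table of raw counts per gene for 6 RNA-seq libraries, made from total RNA. Per the file headers, exons of GENCODE vM33 were counted with featureCounts 2.0.1 and summed by gene; 5 library commands set no strand option, and that of KO replicate 1 is printed without option names. Neither the version of the aligner nor the build is given in the sources used here. One deposited column (WT replicate 2) is entered as other in the record of units kept here, for a technical reason, and holds raw counts like the rest. Low counts were more often even than odd (65.6% to 67.7% of counts from 1 to 20), so both mates of a pair appear to have been counted. Of the 13 samples, the 7 of other assays were not analysed here.

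Symbols were found, ignoring ID versions, for 51948 of 56941 IDs (91.2%). Without strand, reads of overlapping genes cannot be told apart. In RefSeq 9 members overlap a protein-coding gene (Wdr12, Nop56, Nhp2, Mybbp1a, Tsr1, Gnl3, Bop1, Bysl and Dkc1) and 7 hold small nucleolar RNA genes. Reads shared with near-identical gene copies, such as processed copies of Npm1 or Fbl, may be lost or split.

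KO was compared with WT in R 4.3.3 with edgeR 4.0.16: default filter on low counts, TMM normalization (factors 0.984 to 1.016), a robust quasi-likelihood fit, and Benjamini-Hochberg adjustment over 14681 genes with a threshold of 0.05. CPM values use the TMM library sizes, or the library total where stated. The SE of a log2 fold change is its size divided by the root of F, and intervals are 95%. The biological coefficient of variation was 9.28%, and 3104 genes had an unadjusted p under 0.05. Alternatives used DESeq2 1.42.0 and limma 3.58.1. The fit was tested on simulated data.

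The labels do not say that replicates came from separate animals, so the p-values speak only to the spread of these libraries, which may be technical. Members and lists were chosen with earlier results of these data known. All 40 members could be named, with called genes of the other lists and of the Myc network, Myc and Chaf1b. Levels per gene length, which had been planned, were not computed, as the table used has no length column. Whether replicate numbers pair the libraries is not stated, and the main fit treated them as unpaired. Some planned cell type markers are not reported here.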

Additional observations from a re-analysis of the deposited data

How the results depend on the processing

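Of 600 values (40 members under 15 alternatives) 568 stayed on the same side of the threshold, 26 gained a call, 6 lost one and 0 called values changed sign; 18 members kept one sign throughout and 22, none of them called where the sign changed, did not. Genes called over the whole table (576 higher, 362 lower) became 464 and 502 by library total alone, 1558 and 1376 with limma-voom quality weights, and from 225 to 1589 and from 70 to 1372 with one library left out. Lower genes were 746 with no filter on low counts, 569 with DESeq2's Wald test and 231 with the replicate block. Members called lower (1) became 2 by library total, with DESeq2's Wald test or with no filter, 7 with quality weights, 0 with the replicate block and 0 to 14 with one library left out; members called higher (0) became 1 with no filter or with quality weights and 0 to 1 with one library left out. For the 119 other pathway genes, alternatives chosen after seeing the data gave 2 higher with DESeq2's Wald test or with no filter and 9 with quality weights, 2 lower by library total or with no filter and 17 with quality weights, and 0 to 7 higher and 0 to 22 lower with one library left out. Counts of members without overlap were also recomputed under 3 scalings, a choice made after seeing the data, and were 1 higher and 2 or 3 lower. Deviations from the group means were correlated between WT and KO libraries. Those with the same replicate number had r = -0.022, -0.083 and 0.124, and the other pairs ran from -0.149 to 0.164. With 3 libraries a group, such values cannot decide whether the numbers mark a pairing. The replicate block (edgeR) gave an adjusted p of 0.104 for Ubtf and 0.0599 for Mlx, both called without it. The causes of these changes were not tested. The lowest mean level of a member was 60.9 CPM, far above the filter on low counts.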
